A study of Mus musculus with 4 samples.

Results

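The blood-brain barrier junction and transporter genes described here were 9 of the 383 genes of a multiplexed in situ hybridisation (MERFISH) panel. They were chosen by name as the junction, efflux pump, carrier and associated membrane genes of brain endothelium on that panel, namely Cldn5, Esam, Abcb1a, Abcg2, Slco1c1, Slc7a1, Foxq1, Bsg and Itm2a. MERFISH decodes single RNA molecules of each panel gene in a tissue section by repeated rounds of imaging, and each decoded transcript is assigned to a segmented cell. The panel was read on 4 coronal mouse brain sections that held the striatum of both hemispheres, 2 of them labelled Young, from mice aged 2 months, and 2 labelled Aged, from mice aged 18 months. No genotype, drug or other treatment separated the groups, and strain and sex were not in the labels used here. The labels did not name the animal behind each section, while the study describes its replicates as biological. The p-values of the age tests measure the spread between these 4 sections. Comparisons within sections were fitted with the section as a block, and their p-values measure how the within-section difference varied. The questions were in which cells these genes were read, whether their levels in endothelial cells differed between striatum and the rest of the section, and whether they differed between 2 and 18 months.

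The blood-brain barrier is formed by brain endothelial cells, whose tight junctions close the path between cells and whose membrane pumps and carriers decide what crosses them. Efflux pumps return many lipophilic compounds to the blood, whereas solute carriers bring in nutrients and hormones that cannot diffuse across. Pericytes and the endfeet of astrocytes surround the endothelium and share some of these proteins. Among the genes described, Cldn5 encodes the main claudin of the brain endothelial tight junction and Esam an adhesion molecule of endothelial contacts. Abcb1a encodes P-glycoprotein and Abcg2 the breast cancer resistance protein, both efflux pumps. Slco1c1 encodes a carrier of thyroxine and other organic anions, Slc7a1 a carrier of cationic amino acids and Bsg basigin, which accompanies monocarboxylate carriers to the membrane. Foxq1 encodes a forkhead transcription factor and Itm2a a small integral membrane protein.

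The count tables name genes by symbol only. The regions upstream of 4 members are printed because these stand for a junction gene, an efflux pump, a carrier and the member called with age. Each line holds the 250 bases before the annotated start in RefSeq (GRCm38.p6), read 5′ to 3′ on the gene's strand. They span chr16:18776597-18776846 (plus strand) for Cldn5, chr5:8566841-8567090 (plus strand) for Abcb1a, chr6:141524104-141524353 (plus strand) for Slco1c1 and chrX:107403361-107403610 (minus strand) for Itm2a. Capitals mark matches to 5 short motifs, each searched on both strands. The ETS motif was spelled AGGAAG and the TCF/LEF motif was spelled CTTTGA. The GC box was searched as GGGCGG, the CCAAT box by its own letters and the TATA box as TATAAA.
Cldn5: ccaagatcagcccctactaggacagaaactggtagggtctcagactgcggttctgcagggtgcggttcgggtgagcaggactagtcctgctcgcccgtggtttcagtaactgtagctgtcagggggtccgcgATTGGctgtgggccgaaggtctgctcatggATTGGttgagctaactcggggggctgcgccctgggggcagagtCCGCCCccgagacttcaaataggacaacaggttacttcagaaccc
Abcb1a: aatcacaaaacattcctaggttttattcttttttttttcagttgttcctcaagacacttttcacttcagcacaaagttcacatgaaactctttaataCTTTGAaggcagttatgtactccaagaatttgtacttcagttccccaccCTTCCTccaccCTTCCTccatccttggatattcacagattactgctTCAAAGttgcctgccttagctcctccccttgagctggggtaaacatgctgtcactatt
Slco1c1: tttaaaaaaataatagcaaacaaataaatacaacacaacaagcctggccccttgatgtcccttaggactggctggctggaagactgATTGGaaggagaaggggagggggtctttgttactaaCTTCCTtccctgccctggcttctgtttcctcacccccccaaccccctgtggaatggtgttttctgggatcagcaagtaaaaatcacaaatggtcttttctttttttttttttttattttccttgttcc
Itm2a: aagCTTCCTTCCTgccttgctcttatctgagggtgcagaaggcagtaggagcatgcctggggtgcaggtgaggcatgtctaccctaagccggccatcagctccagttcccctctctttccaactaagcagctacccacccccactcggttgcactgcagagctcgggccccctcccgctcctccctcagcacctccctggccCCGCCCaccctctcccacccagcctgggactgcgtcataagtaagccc

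The matches differed among the 4 windows. The Cldn5 window held 2 CCAAT boxes and 1 GC box, and the Itm2a window held 2 overlapping ETS matches and 1 GC box. The Abcb1a window held 2 ETS and 2 TCF/LEF matches, and the Slco1c1 window 1 ETS match and 1 CCAAT box. None of the 4 windows held the TATA box letters. Across all 32851 mouse windows of this length the letters of the ETS motif were in 29.5%, TCF/LEF in 13.8%, the GC box in 32.7%, the CCAAT box in 33.8% and the TATA box in 12.4%, so that single matches were common. GC content was 59.6% for Cldn5 and 62.8% for Itm2a, and 40.4% for Abcb1a and 42.8% for Slco1c1, around a median of 52.4% over all windows. A match is a description of the letters in the window only. The promoter table used here was matched for 6 of the 9 members, and Esam, Foxq1 and Bsg were not matched in it.

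The 4 sections held 320663 segmented cells, of which 281824 were kept, with 18816375 to 36116711 transcripts a section and a median of 215 to 400 transcripts per kept cell. The lowest depth was that of Aged 1 and the highest that of Young 1. Clustering without the 9 genes gave 20697 endothelial-like cells, led by Slc16a4, Slco1c1, Adgrl4 and Itm2a, and the 7 endothelial markers fixed for the check summed to 725 to 822 transcripts per 10000 in them. Between 41.1% and 54.8% of these cells also held at least 3 markers of another class and were left out as mixed, which left 2281, 2744, 2910 and 2835 endothelial-like cells in Young 1, Young 2, Aged 1 and Aged 2. Markers of other cell types were still read in the cells that stayed, and no marker list had a gene at 0. A level is given throughout as transcripts of the gene per 10000 transcripts of all 383 genes in the cells of that class, and levels are compared only within a gene, because probe number and transcript length differ between genes.

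In every section 8 of the 9 genes were read at their highest level in endothelial-like cells, and Foxq1 was the exception. At the finer clustering, which set off ependymal-like cells, this held for 6 genes. There Abcg2 was higher in ependymal-like cells of both Aged sections (203 and 158 against 137 and 144 in endothelial-like cells), and Slc7a1 in those of Aged 2 (41.8 against 30.6). That cluster was small and shallow, with 925 cells before mixed ones were left out and a median depth of 0.307 times the section median. Only 1 of its 10 leading genes was an ependymal marker. Its levels varied widely between sections, for Cldn5 at 10.1, 0, 9.69 and 1.77 in Young 1, Young 2, Aged 1 and Aged 2. Because cell classes were made from the other genes of the same cells, these class levels are a description and no test was run on them. The order of the remaining classes by mean level differed from gene to gene. Abcb1a, Cldn5, Abcg2, Bsg and Itm2a came next in the fibroblast-like cluster, Esam and Slc7a1 in mural-like cells, and Slco1c1 in astrocyte-like cells. The fibroblast-like cluster was itself not a single type, since Acta2, Cd74 and Mrc1, genes of smooth muscle and macrophages, were among its leading genes.

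**Figure D1:**
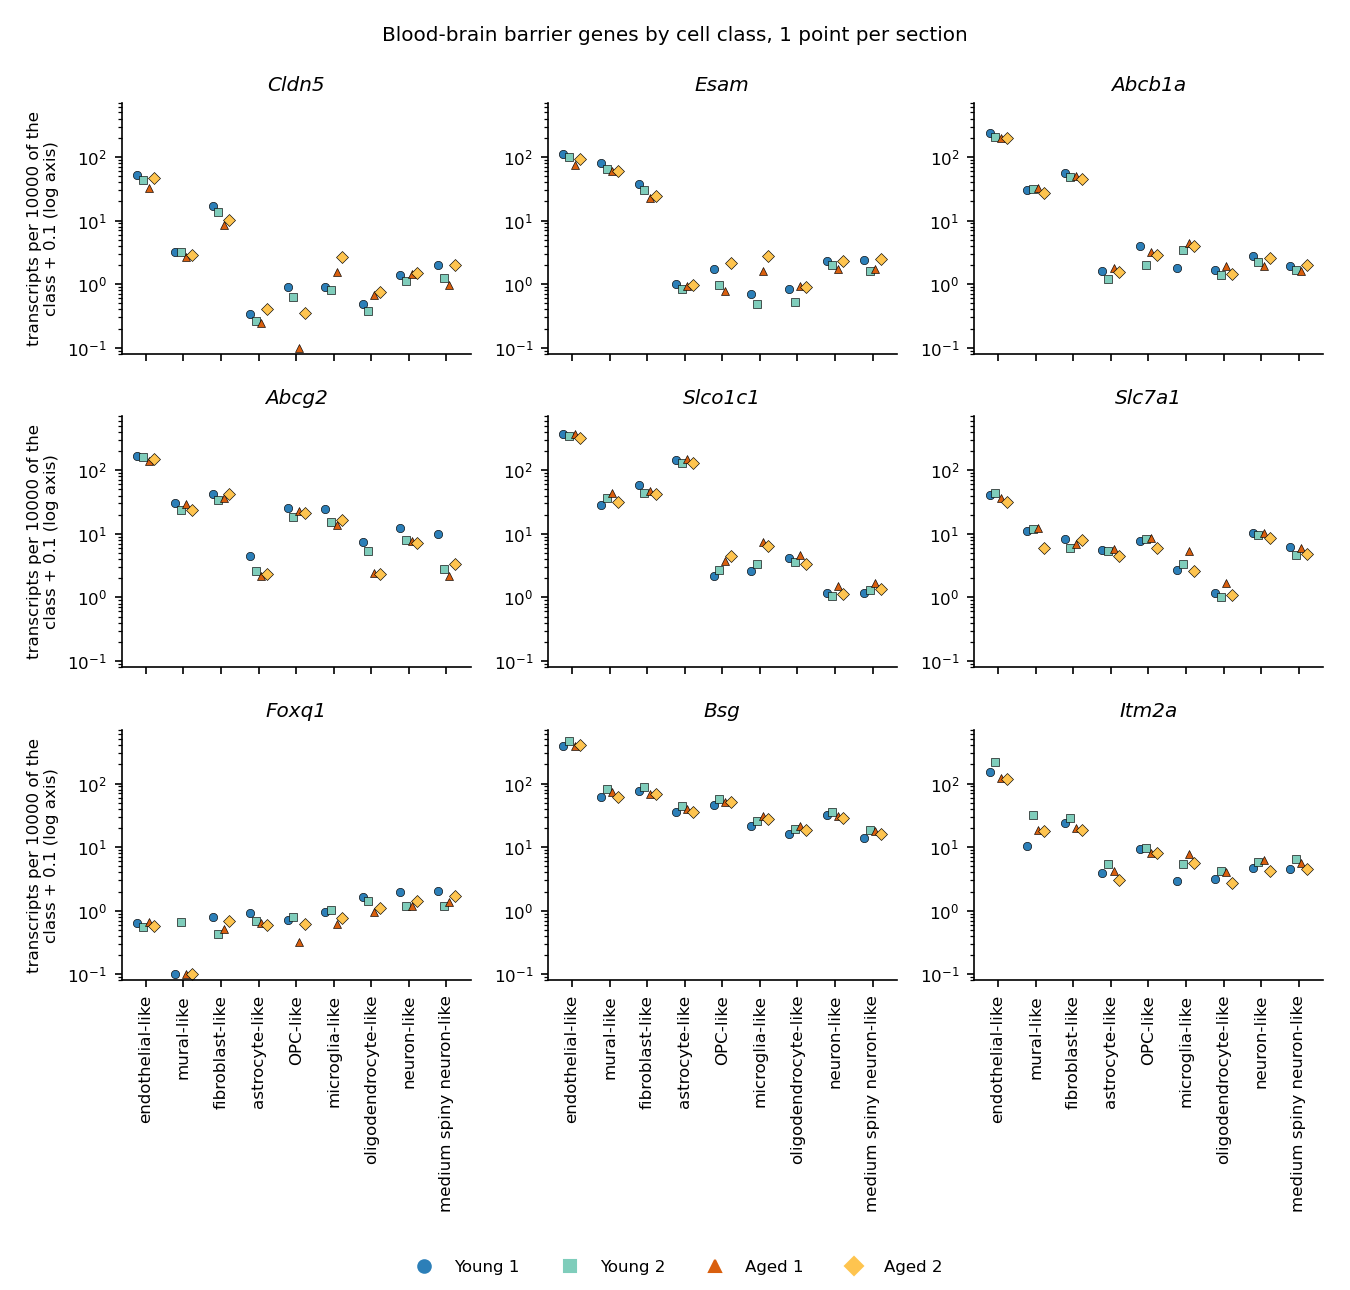
Level of each of the 9 genes in 9 cell classes, as transcripts per 10000 plus 0.1 on a log axis, with 1 point per section. Every gene but Foxq1 has its highest points in endothelial-like cells, Slco1c1 has a second group of high points in astrocyte-like cells (129 to 152) and Esam in mural-like cells (59.5 to 79.9).

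For the junction genes, Cldn5 was read at 51.1 and 43.4 transcripts per 10000 in endothelial-like cells of Young 1 and Young 2, against 32.2 and 46.5 for Aged 1 and Aged 2. Aged 1 was the lowest section, and the ages overlapped. The level was 3.67 ± 0.69 times (SD, n = 4 sections) that of the fibroblast-like cluster and 26.2 ± 8.22 times that of the highest class once mural-like and fibroblast-like cells were set aside. Esam was read at 112, 99.0, 73.8 and 93.1 in the same order of sections. It stood apart from Cldn5 in its second class, since mural-like cells held 79.9, 65.3, 59.8 and 59.5, and the ranges of the 2 classes over the sections overlapped. Within each section the endothelial-like level of Esam was nonetheless 1.23 to 1.57 times the mural-like one. Outside the vessel wall, the endothelial-like level was 44.9 ± 7.30 times that of whichever class was highest in the same section.

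The efflux pumps differed in how much was read outside the vessel wall. Abcb1a was read at 239.5, 208, 195 and 196 transcripts per 10000 in endothelial-like cells of Young 1, Young 2, Aged 1 and Aged 2. Its mean level in all 6 classes outside the vessel wall was 3.31 or lower, and the endothelial-like level was 55.0 ± 8.42 times that of whichever of them was highest in the same section. Abcg2 was read at 170, 159, 141 and 152. It was read in more classes, with means of 21.8 in cells like oligodendrocyte precursors (OPC), 17.5 in microglia-like, 8.76 in neuron-like and 2.82 in astrocyte-like cells. Its endothelial-like level was 7.24 ± 1.11 times that of the OPC-like cells.

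At the coarser clustering reported here, which did not set off ependymal-like cells, Slco1c1 was the one member with a high level in a class outside the vessel wall. Endothelial-like cells held 376, 343, 365 and 325 transcripts per 10000 and astrocyte-like cells 143, 130, 152 and 129. The ratio of the 2 classes was 2.55 ± 0.114 (SD, n = 4) and lay between 2.40 and 2.65. This relative spread was the narrowest among the 9 genes for transcripts per 10000 without mixed cells. With mixed cells kept that of Esam was narrower, and with transcripts per cell volume that of Itm2a. Both Aged ratios of Slco1c1 (2.40 and 2.52) lay below both Young ones (2.62 and 2.65), as they did at the finer clustering. How many of all genes had a ratio that separated the ages was not counted, so this is a description and not an age result. The ages overlapped with mixed cells kept, where Aged 2 was at 2.24 and Young 1 at 2.22. They also overlapped with transcripts per cell volume, where Aged 2 was at 2.62 and Young 1 at 2.60. In neuron-like and medium spiny neuron-like cells, the latter being the projection neurons of the striatum, mean Slco1c1 levels were 1.11 and 1.28.

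Slc7a1, the cationic amino acid carrier, was read at 41.2, 43.6, 36.5 and 31.9 in endothelial-like cells. Its other classes lay closer together than those of the pumps, with means of 10.2 in mural-like, 9.59 in neuron-like and 7.51 in OPC-like cells and 1.15 in oligodendrocyte-like cells. The endothelial-like level was 3.56 ± 0.392 times the highest other class of each section, and 2.01 times with mixed cells kept. Bsg, basigin, was read at 388, 469, 389 and 405, with Young 2 above the other sections, and was 5.44 ± 0.357 times the highest other class of each section (fibroblast-like, or mural-like in Aged 1) and 8.03 ± 0.385 times the OPC-like one. Itm2a was read at 153 and 218 at the younger age and at 121 and 116 at the older, so that the ages did not overlap. Its ratio to the highest other class of each section, 6.41 ± 0.304, was the largest of the 9 members.

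Foxq1 was barely read in endothelial-like cells. Only 17, 16, 17 and 17 transcripts were counted in all endothelial-like cells of Young 1, Young 2, Aged 1 and Aged 2, or 0.537, 0.444, 0.560 and 0.476 per 10000. Medium spiny neuron-like cells held 1.91, 1.07, 1.26 and 1.61 and neuron-like cells 1.84, 1.09, 1.09 and 1.33, and the endothelial-like level was 0.338 ± 0.073 times that of the highest class in the same section. Its results below rest on these few transcripts.

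The split between endothelial-like and other cells was also read per cell. Each cell with at least 50 transcripts was thinned to 50 so that depth was equal, which left out 387, 487, 735 and 555 endothelial-like cells and kept 1894, 2257, 2175 and 2280. The share of endothelial-like cells with at least 1 transcript of a gene then averaged 80.8% for Bsg, 74.9% for Slco1c1, 61.4% for Abcb1a, 51.6% for Abcg2, 47.4% for Itm2a, 35.6% for Esam, 18.0% for Cldn5 and 16.2% for Slc7a1 over the 4 sections. In neuron-like cells, which should lack most of these transcripts, the shares were 14.4%, 0.705%, 1.14%, 4.34%, 2.52%, 0.989%, 0.643% and 4.62% in the same order. Each of these 8 genes was therefore detected in more endothelial-like than neuron-like cells, and the ratio of the shares was smallest for Slc7a1 and Bsg. For Foxq1 the order was turned, at 0.236% in endothelial-like and 0.645% in neuron-like cells, and Slco1c1 was detected in 42.9% of astrocyte-like cells. Over all unmixed cells and without thinning, the endothelial-like shares were 86.9%, 82.5%, 76.1%, 69.7%, 63.7%, 54.6%, 33.3% and 30.3% in the order given, at a median of 87 to 113 transcripts per cell.

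The panel genes whose levels ran most like each member were found by Pearson correlation of log2 levels over 36 points, 9 classes in 4 sections. These points share sections and class definitions, and the values are descriptions. Abcb1a ran closest to Cyyr1 (r = 0.98), Adgrl4 (r = 0.98) and Nostrin (r = 0.97), Cldn5 to Ly6a (r = 0.95), Podxl (r = 0.95) and Klf2 (r = 0.93), and Esam to Nostrin (r = 0.95), Abcb1a (r = 0.95) and Cxcl12 (r = 0.94). Bsg and Itm2a ran closest to each other (r = 0.95). Bsg came next to Igf1r (r = 0.93) and Polk (r = 0.92), and Itm2a to Abcb1a (r = 0.94) and Nostrin (r = 0.94). Abcg2 had lower values, with Abcb1a (r = 0.88), Adgrl4 (r = 0.86) and Tnfsf10 (r = 0.86) first. The patterns of the remaining carriers were shared with other genes, Slco1c1 with Pltp (r = 0.91), Rassf9 (r = 0.89) and Tm4sf1 (r = 0.88), and Slc7a1 with Gpcpd1 (r = 0.96), Spock2 (r = 0.90) and Ptprg (r = 0.89). Foxq1 was nearest to Gm16499 (r = 0.74), Oprm1 (r = 0.72) and Lag3 (r = 0.65).

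Cells that lay next to endothelial-like cells held more of some of these transcripts than cells farther away. Cells with their centre under 15 µm from the nearest endothelial-like cell were set against those over 40 µm away, 2836 against 23758 neuron-like cells and 2970 against 28631 medium spiny neuron-like cells. Slco1c1 in neuron-like cells was at 2.77, 2.92, 3.28 and 3.24 per 10000 near and at 0.921, 0.886, 1.34 and 0.898 far in Young 1, Young 2, Aged 1 and Aged 2, a mean ratio of 3.09 ± 0.491. All 4 sections moved the same way, and the ratio was 2.65 ± 0.276 in medium spiny neuron-like cells. Abcb1a followed, with ratios of 1.81 ± 0.106 and 1.94 ± 0.426 in these classes and 2.52 in astrocyte-like cells. Between cells under 10 µm and over 60 µm away the ratios were larger, at 5.55 and 4.67 for Slco1c1 and 2.56 and 3.12 for Abcb1a.

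The remaining members moved less with distance. Esam was 1.26 and 1.40 times higher near in neuron-like and medium spiny neuron-like cells, Bsg 1.09 and 1.14 times, each in all 4 sections, and Itm2a 1.22 times in medium spiny neuron-like cells. Slc7a1 ran the other way in medium spiny neuron-like cells, at 0.902 ± 0.046 of the far level and lower near in all 4 sections, and its ratio in neuron-like cells lay between 0.912 and 1.05. In neuron-like cells more than 40 µm away, levels of 2.25 for Abcb1a and 1.01 for Slco1c1 were left. Whether transcripts of a neighbouring endothelial cell were assigned to these cells was not tested.

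**Figure D2:**
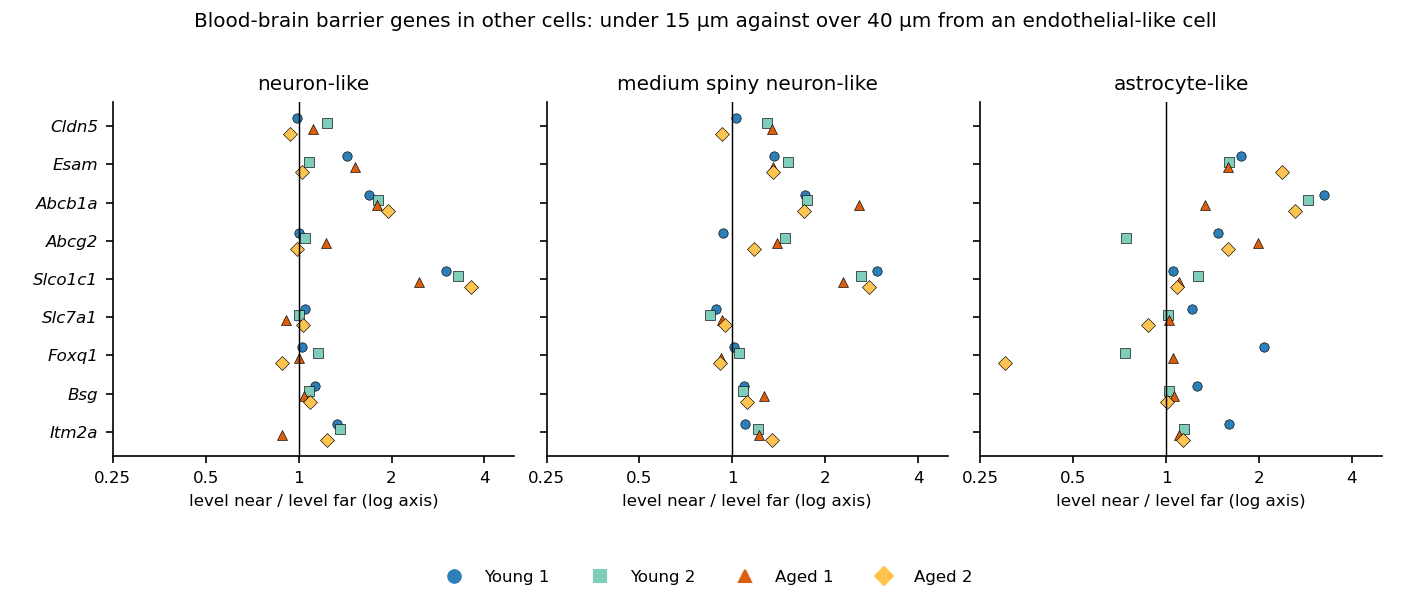
Ratio of the level in cells under 15 µm from an endothelial-like cell to that in cells over 40 µm away, for each gene in neuron-like, medium spiny neuron-like and astrocyte-like cells, with 1 point per section (Cldn5 in astrocyte-like cells is not drawn). Slco1c1 lies near 3 in the neuronal classes and near 1.13 in astrocyte-like cells, while Foxq1 and Slc7a1 in neuron-like cells lie near 1.

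To ask whether barrier genes differed by brain region, endothelial-like cells inside the outlined striatum, 666 to 732 cells a section, were compared with those in the rest of the same section. Itm2a was higher in striatum in every section and passed the test, and 4 more members passed it with smaller differences that depended on how counts were scaled. Itm2a was read at 171, 243, 134 and 131 per 10000 in striatum and at 144, 210, 116 and 112 elsewhere in Young 1, Young 2, Aged 1 and Aged 2. Each section's striatal value was above its other value by 0.21 to 0.25 on the log2 scale. In edgeR's quasi-likelihood test with the section as a block, the log2 difference was 0.34 ± 0.05 (SE, adjusted p = 2.1e-05).

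The efflux pumps, Slco1c1 and Esam were the other 4 called. Abcb1a was at 250, 208, 206 and 208 in striatum and 234, 208, 191 and 192 elsewhere, with Young 2 level between the regions. Abcg2 was at 182, 176, 141 and 154 against 165, 153, 141 and 152, so that the Young sections differed and the Aged ones hardly did. Its age change in striatum minus that in other tissue was -0.07 and not called (adjusted p = 0.705, edgeR). Slco1c1 was at 402, 357, 354 and 352 against 363, 339, 369 and 316, with Aged 1 turned the other way. Esam was at 124, 99.7, 76.7 and 96.7 against 107, 98.8, 72.7 and 91.9. The log2 differences were 0.20 (adjusted p = 0.00688) for Esam, 0.20 (adjusted p = 0.00236) for Abcg2, 0.19 (adjusted p = 0.00181) for Slco1c1 and 0.19 (adjusted p = 0.00447) for Abcb1a by edgeR. Bsg at 0.08, Cldn5 at 0.04 and Slc7a1 at 0.01 were not called (adjusted p = 0.15, 0.635 and 0.96), and Foxq1 was too low to be tested.

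These 5 of 8 members called higher stood against 73 of all 360 genes tested, or 20.3%, called higher and 137, or 38.1%, called either way. The median of the members was 0.19, that of the 18 general endothelial genes of the panel 0.18 with 9 of them called higher, and that of all genes 0.04. When library sizes were set by those 18 endothelial genes, the median of all genes moved by -0.19, Itm2a stayed called at 0.14 (adjusted p = 0.00734), Bsg at -0.11 and Slc7a1 at -0.19 were called lower, and the other called members lay between -0.0038 and 0.01. At the finer clustering no member was called, with Itm2a at 0.13. Without Aged 2, 2 members were called, Itm2a at 0.28 (adjusted p = 0.00107) and Abcg2 at 0.18 (adjusted p = 0.0297).

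Marker transcripts of other cell types moved with the same comparison. The largest differences of all genes in endothelial-like cells included Crym at 3.40 and the medium spiny neuron marker Drd2 at 3.03. Crym was in none of the marker lists. Among the lowest were Gfap at -2.93, Itih3 at -1.73 and Stmn2 at -1.72. Summed over their lists, medium spiny neuron markers in endothelial-like cells ranged from 69.4 to 104 per 10000 in striatum and 16.7 to 19.7 elsewhere, astrocyte markers from 83.2 to 129 and 151 to 203, and neuron markers from 32.3 to 45.6 and 76.7 to 109. None of these lists had a gene at 0. Their part in the differences of the members was not tested.

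Among other carriers of brain endothelium on the panel, Slc16a4, of the monocarboxylate carrier family, was called higher in striatum by edgeR, at 0.28 (adjusted p = 0.0059). Slc16a1, a monocarboxylate carrier, was at -0.04, Slc6a6, the taurine carrier, at 0.11 and Slc52a2, a riboflavin carrier, at 0.05, and none of them was called. On the scale of the 18 endothelial genes Slc16a4 was at 0.09 and not called.

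Between 2 and 18 months, Itm2a was the only member whose change in endothelial-like cells passed the test. Its levels of 153 and 218 at 2 months and 121 and 116 at 18 months did not overlap, and the edgeR fit gave a log2 change of -0.72 ± 0.17 (SE, adjusted p = 0.00818), or 0.607 times the Young level. Across all genes 6 of 377, or 1.59%, were called lower and 1, or 0.265%, higher, 7 or 1.86% in all. The genes called with the largest falls were Cd38 at -0.96, the basement membrane collagen Col4a2 at -0.92 and the endothelial transcription factor Sox18 at -0.80. The one that rose was the smooth muscle actin gene Acta2 at 1.43. The Acta2 call held in 3 of 10 alternatives, over which its value ran from 0.18 to 1.72. The call held in 6 of them for Cd38, in 5 for Col4a2 and in 7 for Sox18.

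The Itm2a call was lost when any 1 of 3 sections was left out, in fits where the age with 1 section is assumed to vary like the other. It was not made without Young 2 (-0.40, adjusted p = 0.544), without Aged 1 (-0.72, adjusted p = 0.557) and without Aged 2 (-0.74, adjusted p = 0.292), and it held without Young 1 (-0.97, adjusted p = 0.000871). It was also lost with library sizes from the endothelial genes (-0.62, adjusted p = 0.122), at the finer clustering (-0.73, adjusted p = 0.161) and in cells without arterial markers (-0.72, adjusted p = 0.0581). The direction was lower in Aged in all of these fits.

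**Figure D3:**
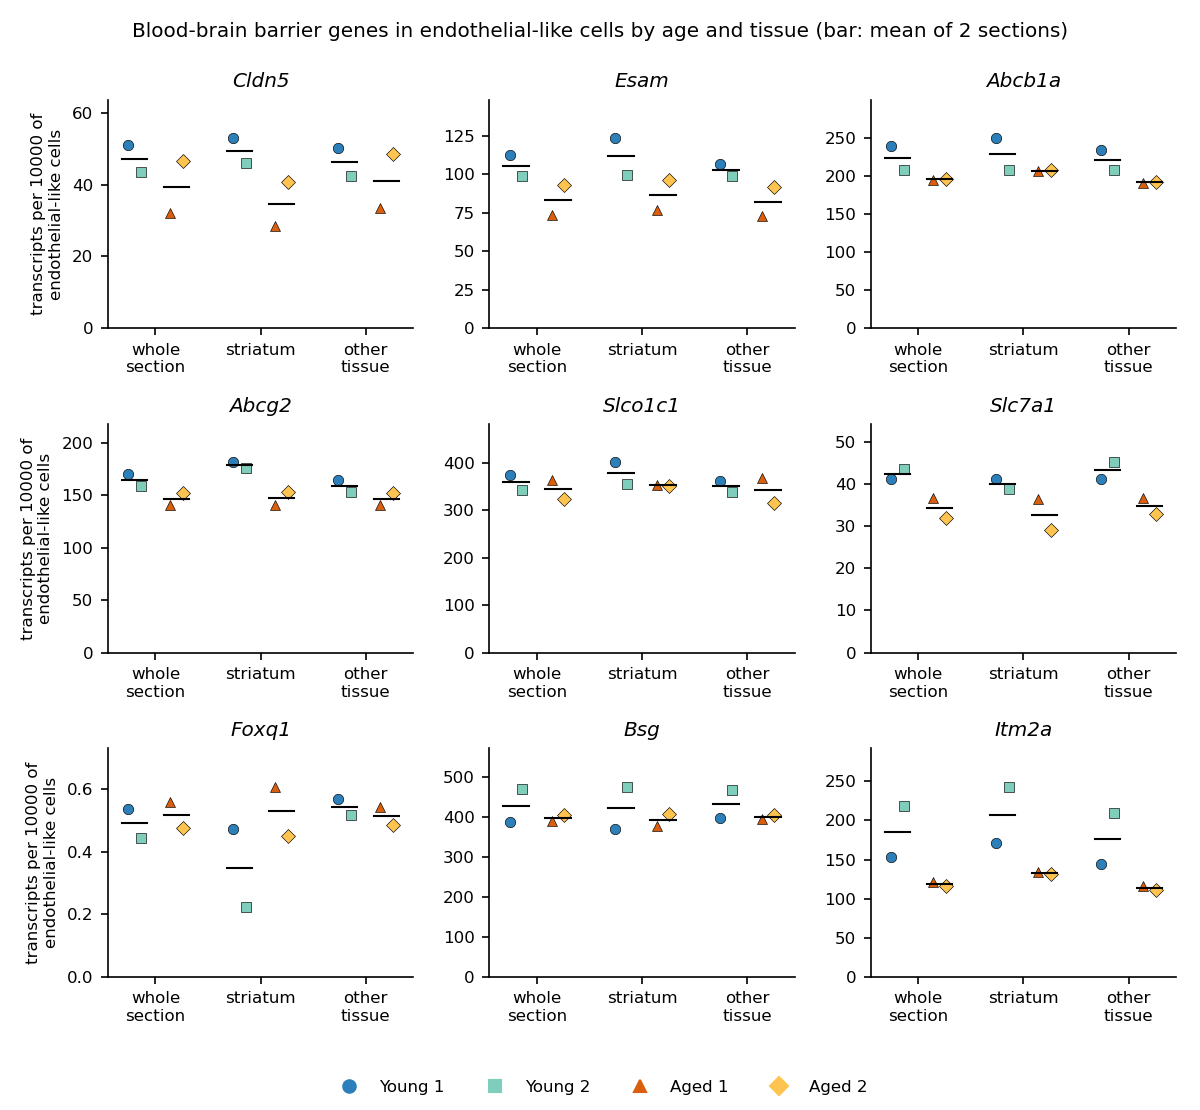
Level of each gene in endothelial-like cells, in transcripts per 10000, for the whole section, the striatum and other tissue, with 1 point per section and a bar at the mean of the 2 sections of an age. The Itm2a points of the Young sections (153 and 218 in the whole section) lie above those of the Aged sections (121 and 116), whereas in the whole section the Cldn5, Slco1c1 and Bsg points of the ages overlap.

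The other 8 members were not called. The efflux pumps lay lower in both Aged sections, Abcb1a at 239.5 and 208 against 195 and 196 and Abcg2 at 170 and 159 against 141 and 152, with log2 differences of -0.26 (adjusted p = 0.525) and -0.24 (adjusted p = 0.548) in edgeR's test. Esam, at 112 and 99.0 against 73.8 and 93.1, also did not overlap between ages, with -0.41 ± 0.18 (adjusted p = 0.297). Slc7a1 was at 41.2 and 43.6 against 36.5 and 31.9, with -0.38 (adjusted p = 0.437). Cldn5 overlapped between ages at -0.33 ± 0.19 (adjusted p = 0.487), as did Slco1c1 at -0.13 (adjusted p = 0.756) and Bsg at -0.18 (adjusted p = 0.632). Foxq1 was at 0.01 (adjusted p = 0.99) on the few transcripts given above.

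The list of members is described by its counts and median, with no test of the list. The log2 difference was below 0 for 8 of 9 members, with a median of -0.26, against a median of 0.03 over all 377 genes and -0.11 over the 18 general endothelial genes, of which 2 were called lower. The ages did not overlap and Aged was lower for 5 of 9 members, Esam, Abcb1a, Abcg2, Slc7a1 and Itm2a, for 6 of the 18 general endothelial genes, and for 68 of 377 genes, or 18%. Aged was higher without overlap for none of the 9 and for 107 genes, or 28.4%. With library sizes from the endothelial genes the median of the members was -0.17 and that of all genes 0.12. Over the same sections, marker transcripts of other classes read in endothelial-like cells were 61.9 and 75.4 per 10000 at 2 months against 91.8 and 82.5 at 18 months for neurons and 128 and 149 against 183 and 142 for astrocytes. For microglia they lay between 18.1 and 28.1, with both Young sections below both Aged ones. Their part in the lower member levels was not tested.

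**Figure D4:**
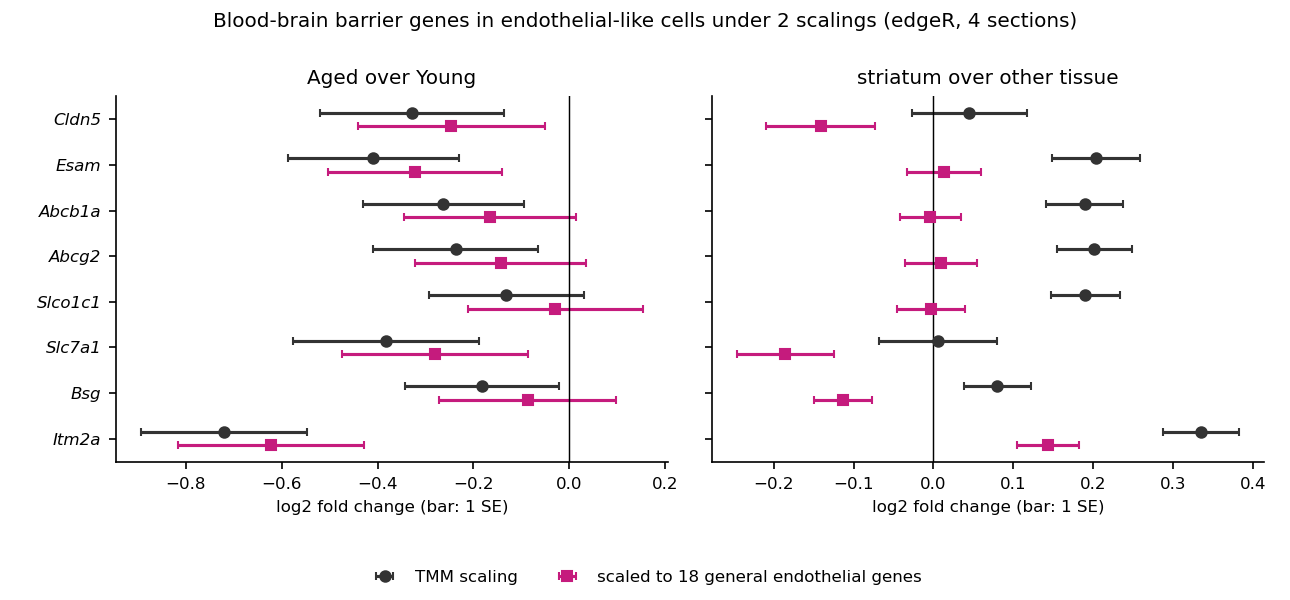
Log2 differences with 1 standard error for 8 members in endothelial-like cells, Aged over Young and striatum over other tissue, each with TMM library sizes and with library sizes from 18 endothelial genes. All 8 lie below 0 for age on both scales, with Itm2a lowest at -0.72 and -0.62, whereas for striatum they lie between 0.01 and 0.34 on the first scale and between -0.19 and 0.14 on the second.

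Of the other carriers, none of Slc16a4, Slc52a2, Slc16a1 and Slc6a6 was called with age by edgeR or by DESeq2. Slc16a4 was lower in both Aged sections than in both Young ones, with its highest level in Young 2 at 35.7 per 10000. On the log2 scale Slc16a4 was at -0.38, Slc52a2 at -0.33, Slc16a1 at -0.11 and Slc6a6 at 0.25. Of the 3 adhesion genes Vcam1, Icam1 and Vwf, 0 were called by edgeR and 0 had an unadjusted p under 0.05, where 41 of all 377 genes had one. Their fitted log2 differences ran from -0.57 to 0.08 with a median of -0.41, while their summed level overlapped between ages, at 40.3 and 40.8 per 10000 in Young 1 and Young 2 and 36.15 and 41.9 in Aged 1 and Aged 2.

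In striatal endothelial-like cells no gene of 321 was called (0% in either direction) by edgeR or by DESeq2, and 43 had an unadjusted p under 0.05, 3 of them members. Itm2a, at 171 and 243 against 134 and 131, differed by -0.69 (adjusted p = 0.286). Cldn5, at 53.0 and 46.0 against 28.5 and 40.9, did not overlap between ages in striatum and differed by -0.55 (adjusted p = 0.329). Of the 8 members tested, 7 were lower in both Aged sections than in both Young ones, against 4 of the 18 general endothelial genes and 61 of 321 genes, or 19%, and none was higher in both, against 90, or 28%. Bsg, at 371 and 476 against 377 and 408, was the one whose ages overlapped. Without Aged 2, 8 genes were called, among them Itm2a at -0.69 and Cldn5 at -0.86, but that fit has Aged 1 alone, the section of lowest depth, and assumes that it varies like the Young sections.

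The age change in striatum was then tested directly against that in other tissue. Of 360 genes 0 were called (0%) by edgeR and 0 by DESeq2, and 36 had an unadjusted p under 0.05. Among them were Cldn5, with a term of -0.24 ± 0.09 on TMM-scaled counts (adjusted p = 0.453, and -0.46 to -0.15 over the alternatives), and Abcb1a, with a term of 0.16 (adjusted p = 0.453). The median term over all genes was 0.10 on this scale. Outside the striatum Cldn5 was at 50.1, 42.5, 33.5 and 48.4, so that Aged 2 lay as high as the Young sections.

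Endothelial-like cells with at least 2 of 5 arterial markers (Bmx, Gkn3, Sema3g, Vegfc and Edn1) were set against those with none to see whether members differed along the vessel. Slco1c1 was higher in cells with arterial markers in all 4 sections, at 442, 403, 428 and 408 against 371, 329, 352 and 300, with a log2 difference of 0.52 ± 0.06 (adjusted p = 3.9e-06, edgeR). Slc7a1 was lower in all 4, at 32.3, 26.6, 19.2 and 23.6 against 42.5, 45.7, 37.3 and 34.3, with -0.43 ± 0.13 (adjusted p = 0.0157). The Slc7a1 call was lost with cells of at least 1 arterial marker (-0.05, adjusted p = 0.577), without the section block (-0.42, adjusted p = 0.121) and without Young 2 (-0.38, adjusted p = 0.131). Of the 9 members 3 were called higher, where 70 of 353 genes (19.8%) were, and 1 lower, where 50 (14.2%) were, 120 or 34% in all. The other members called were Cldn5 at 0.37 (adjusted p = 0.00745) and Abcb1a at 0.25 (adjusted p = 0.00609). Cldn5 levels were higher with arterial markers in 4 of 4 sections and Abcb1a levels in 2 of 4, at 237, 203, 213 and 198 against 241, 205, 193 and 189. On the scale of the 18 endothelial genes, which moved the median of all genes by -0.43, Slco1c1 was at 0.10 and not called, Cldn5 at -0.06 was not called, Abcb1a at -0.18 was called lower and Slc7a1 was called lower at -0.86. Slco1c1 was also not called with mixed cells kept (0.15) or called by marker share (0.08). Cldn5 was called in 3 of 9 alternatives and ran from -0.06 to 0.39. Abcb1a was called higher in 2 of 9, lower in 2 of 9, and ran from -0.18 to 0.26. Both calls were also lost without Young 1 or without Aged 2, and that of Cldn5 without Young 2. Among the other carriers, Slc16a1 was lower in cells with arterial markers, at 62.6, 57.6, 56.0 and 43.6 against 133, 105, 127 and 108, with a log2 difference of -0.90 (adjusted p = 5.7e-07). Markers of other classes moved with this split. Astrocyte markers were at 75.1, 85.9, 131 and 105 against 140, 169, 200 and 158 without arterial markers. Neuron markers were at 33.6, 58.0, 82.7 and 51.5 against 67.5, 78.8, 93.7 and 92.8. Mural markers ran the other way, at 234, 297, 297 and 311 against 212, 254, 275 and 246. Their part in the differences was not tested.

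Outside the endothelium, Abcg2 in oligodendrocyte-like cells was the only member called between the ages in the 8 other classes tested. The share of all genes called in the others was 2.7% in OPC-like, 4.22% in astrocyte-like, 1.85% in fibroblast-like, 0.291% in microglia-like and 0.816% in mural-like cells, and 0% in neuron-like and medium spiny neuron-like cells, where 17 and 28 of 383 genes had an unadjusted p under 0.05. DESeq2 called no other member in these classes either. It was read at 7.27 and 5.17 per 10000 in Young 1 and Young 2 and at 2.35 and 2.21 in Aged 1 and Aged 2, without overlap. The log2 change was -1.56 ± 0.26 (SE, adjusted p = 0.00442, edgeR), in a class where 21 of 381 genes (5.51%) were called and 10 (2.62%) were called lower. The call held in each alternative run, and was smaller with mixed cells kept (-0.86). The level was low, below that of neuron-like cells in the same section, at 12.3, 8.01, 7.59 and 7.13, and oligodendrocyte-like cells within 15 µm of an endothelial-like cell held 1.17 to 2.37 times the level of those over 40 µm away. Abcg2 in medium spiny neuron-like cells, at 9.98, 2.68, 2.10 and 3.20, was set apart by Young 1 alone and was not called.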

How the data were processed

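MERFISH was run on 4 sections of 10 µm. Per the labels, the authors decoded transcripts with MERLIN and used Vizgen software to segment cells. The deposited tables hold whole-number transcript counts per cell and gene and each cell's volume and centre. A deposited table of the authors' mean signal per cell, gene and section was used only to check that sections and genes were read correctly. The deposited counts were not normalised, and no cell type annotation was used here. Files of the Young sections carry internal names that differ from the sample titles, and samples were taken from the titles. Cells with under 10 genes or 50 µm3 were left out. No cell identifier was shared between sections, and counts of the 2 sections of an age differed beyond sampling noise (chi-square per degree of freedom 13.11 and 17.49).

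Counts were normalised to 10000 per cell, logged and clustered (Louvain, igraph 0.11.9, 15 components, 20 neighbours, resolution 0.08) without the 9 members, and clusters were named from marker lists. The vascular cluster of 45862 cells, named mural at this step, was clustered again at resolution 0.1. This gave the endothelial-like, mural-like, fibroblast-like and microglia-like cells. Cells in which 3 or more markers both of their own class and of another were detected were called mixed and left out. No doublet caller was run. The striatum was outlined from 50 µm squares with at least 40% medium spiny neuron-like cells within 150 µm. Counts were summed per section and class and tested with edgeR 4.0.16 (TMM, filterByExpr, quasi-likelihood test, R 4.3.3), with Benjamini-Hochberg adjustment over all genes tested and a threshold of 0.05. The section was a block where both sides came from the same section. A standard error was taken as the log2 change over the square root of F. DESeq2 1.42.0 and limma 3.58.1 (log2 of the level per 10000 plus 0.5) were alternatives, as were no filter on low counts, mixed cells kept or called by marker share, a finer clustering at resolution 0.3, outlines at 30% and 50%, library sizes from 18 general endothelial genes, and leaving out each section. On simulated counts for the age comparison, over 377 genes, 63.0% of changes of 0.5 on the log2 scale, 93.8% of changes of 1 and 96.1% of changes of 1.5 were called, and 3 of 180 unchanged genes were. The simulation gave every gene the same fixed dispersion and changed 81, 65 and 51 tested genes by these amounts. In the data spread differed between genes and 7 of 377 genes were called, so these shares are not the power of the age test.

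The genes named were the 9 members, a list of other endothelial carriers, the 3 panel genes nearest each member and, in the age and region comparisons, the 3 called with the largest rise and fall, except that results for some genes are not reported here. Genes named for a cluster's leading markers were read off after clustering. The members and lists were chosen with earlier results of these data known. Promoter windows came from RefSeq (GRCm38.p6).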

Additional observations from a re-analysis of the deposited data

Results flagged for a closer look

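Cldn5 in endothelial-like cells ran opposite ways at the 2 ages when striatum was set against other tissue of the same section. The log2 ratio of its levels was 0.080 in Young 1 and 0.112 in Young 2, and -0.236 in Aged 1 and -0.244 in Aged 2. The age term was tested on TMM-scaled counts, not on these ratios of levels, and on that scale the median term over all genes was 0.10. The term of Cldn5 was -0.24 ± 0.09 on the log2 scale (SE, edgeR's quasi-likelihood test, unadjusted p = 0.0265), ran from -0.46 to -0.15 over the alternatives, and did not pass after adjustment over 360 genes (adjusted p = 0.453).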

How the results depend on the processing

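In endothelial-like cells the direction of the Itm2a difference was the same in every alternative run, both with age and between regions. With age this also held for Cldn5, Esam, Abcb1a, Abcg2, Slc7a1 and Bsg. Between regions Esam kept its direction as well, while the other members tested changed sign in at least 1 alternative. The limits are the number of sections, 2 at each age, and the marker transcripts of other classes still read in unmixed cells. A further limit is a panel in which the scale of an endothelial cell depends on what else was read in it. Deviations of sections with the same replicate number correlated at -0.15 over 377 genes. This single correlation, from 2 sections at each age, cannot decide whether the sections were paired. With the replicate number as a block, 3 genes were called with age, Itm2a among them at -0.69, and no gene in striatum. The crossed pairing, chosen after seeing the data, called 15 genes in the whole section and 0 in striatum.

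With age, 1 member and 7 genes were called in the analysis reported. No member and no gene was called (0 and 0) with library sizes from the endothelial genes or at the finer clustering, and 0 members and 2 genes in cells without arterial markers. Leaving out a section leaves its age with 1, which is assumed to vary like the other age. Leaving out each section gave 0 to 1 members and 0 to 1 genes in the whole section, and 0 to 2 members and 0 to 8 genes in striatum. Signs changed for values near 0 that were not called. Slco1c1 was at 0.0056 with mixed cells kept and 0.032 with mixed cells called by marker share, and Slc16a1 at 0.065 and 0.026. Foxq1 was at -0.0034 with DESeq2, -0.29 with mixed cells kept, -0.30 by marker share and -0.16 at the finer clustering. Leaving out each section put Foxq1 between -0.093 and 0.12, Slc16a1 between -0.26 and 0.028 and Slc6a6 between -0.0081 and 0.59.

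Between regions, 5 members and 137 genes were called in the analysis reported. The members called were 1 with limma, 3 with mixed cells called by marker share, 0 at the finer clustering, 3 in cells without arterial markers, 3 with library sizes from the endothelial genes, 0 without the section block, and 2 to 5 leaving out each section. The genes called were 215 with mixed cells kept and 58 without the section block. With limma, Cldn5 was at -0.071, Slc7a1 at -0.10, Bsg at -0.030, Slc6a6 at -0.0073 and Slc52a2 at -0.046. By marker share, Cldn5 was at -0.15, Slco1c1 at -0.0016, Slc7a1 at -0.16, Bsg at -0.082 and Slc52a2 at -0.12. At the finer clustering, Cldn5 was at -0.17, Abcb1a at -0.020, Abcg2 at -0.0031, Slco1c1 at -0.017, Slc7a1 at -0.17, Bsg at -0.12, Slc6a6 at -0.10 and Slc52a2 at -0.059. With library sizes from the endothelial genes, Cldn5 was at -0.14, Abcb1a at -0.0038, Slco1c1 at -0.0029, Slc7a1 at -0.19, Bsg at -0.11, Slc6a6 at -0.082 and Slc52a2 at -0.14. Slc7a1 was also at -0.027 with no filter on low counts, -0.031 in cells without arterial markers, -0.053 without oligodendrocyte-rich squares, -0.012 and -0.078 at the 30% and 50% outlines and -0.047 without the section block. Slc6a6 was at -0.030 in cells without arterial markers. Slc52a2 was at -0.031 without oligodendrocyte-rich squares, -0.023 at the 30% outline and -0.0015 without the section block. Leaving out each section put Cldn5 between -0.056 and 0.068, Slc7a1 between -0.051 and 0.0069 and Slc52a2 between -0.0066 and 0.068.

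For the age change in striatum against other tissue, where no gene was called in the analysis reported, 3 genes were called with no filter on low counts, 3 with mixed cells kept, 1 at the finer clustering, 2 in cells without arterial markers, 2 and 1 at the 30% and 50% outlines, 2 with library sizes from the endothelial genes and 0 to 7 leaving out each section. Abcb1a was at -0.0048 by marker share, at -0.068 at the finer clustering and between -0.010 and 0.21 leaving out each section. For arterial markers, where 4 members and 120 genes were called, 2 members were called with limma, 1 without the section block, 7 at 1 marker or more, 2 at 3 or more and 2 to 4 leaving out each section, and 74 genes were called by marker share, 64 without the section block and 67 to 107 leaving out each section. Cldn5 was at -0.051 by marker share and -0.063 with library sizes from the endothelial genes, and Abcb1a at -0.13 with mixed cells kept, -0.15 by marker share and -0.18 with those library sizes. In other classes, 1 member was called in mural-like cells with mixed cells kept, and 0 to 1 in astrocyte-like and in medium spiny neuron-like cells leaving out each section. In oligodendrocyte-like cells 9 genes were called with mixed cells kept and 20 to 40 leaving out each section. At the finer clustering, which set off ependymal-like cells, 6 members were highest in endothelial-like cells in all sections. With mixed cells kept, the ratio to the highest other class was 2.39 for Abcb1a and 2.32 for Abcg2, against 4.25 and 4.04 without them. Mean levels of Abcb1a, Esam and Cldn5 were then 167, 73.7 and 35.2 in endothelial-like cells and 8.53, 4.19 and 2.29 in microglia-like cells. With mixed cells kept, 7 members were higher near endothelial-like cells in neuron-like cells in all sections. The cause of these differences between settings was not tested.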
